A study of Mus musculus with 4 samples.

Results

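Class I antigen presentation was examined in primary fibroblasts cultured from mouse embryos (MEFs) with and without Pf1, through 10 genes out of 18194 with a named probe set. The genes were taken by symbol from the platform annotation: the class I heavy chains H2-K1 and H2-D1, the light chain B2m, the peptide transporter genes Tap1 and Tap2, tapasin (Tapbp), the immunoproteasome subunits Psmb8, Psmb9 and Psmb10, and the transactivator Nlrc5. All 10 had at least 1 probe set of their own, 27 in all, and the rule that picks them uses gene symbols and no measured value, although the list was drawn up with earlier results of these data known. A further 3 probe sets that name H2-K1 or H2-D1 together with other genes were left out.

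The tested cells were Pf1 -/- (KO) lines 2 and 4 and the controls were Pf1 WT (+/+) lines 5 and 6, all with the prefix 7706, with 1 array per line. The Phf12 gene encodes Pf1, a PHD finger protein that works with the Sin3 corepressor. All lines came from embryo torsos (embryonic day 13.5 or 14.5, without head and red organs), were kept at 6% oxygen and were sampled at passage 2 to 3. Passage and embryonic day are not assigned to lines in the labels, which also leave out whether lines derive from different embryos. The p-values therefore reflect only the variation among these 4 cultures. Which part of the gene is deleted is not stated in the labels.

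Cells display peptides of their own proteins on class I molecules, which pair a polymorphic heavy chain with B2m. The proteasome cuts the peptides, the Tap1 and Tap2 pump carries them into the endoplasmic reticulum, and tapasin holds an empty class I molecule beside the pump until a peptide binds. Interferons raise these genes in fibroblasts, replace the constitutive catalytic subunits of the proteasome by Psmb8, Psmb9 and Psmb10, and induce Nlrc5, which activates the promoters of class I genes.

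The deposited log2 values were centred so that the median of each probe set over the 4 arrays is 0. A value is therefore a distance from that median and not a level, genes cannot be ranked by level, and the absence of a cell type marker cannot be read. Where the genotypes do not overlap, the inner KO line and the inner WT line of a probe set are mirror images of each other by this construction. Differences are KO minus WT on the log2 scale with the standard error (SE) of limma, n = 2 lines each, and a gene was called at a limma adjusted p under 0.05 over all 18194 genes. As a check of the labels, Phf12 probe set 1434922_at stood at -0.37 and -0.41 in KO lines 2 and 4, against 0.56 and 0.37 in WT lines 5 and 6 (limma adjusted p = 0.0213). The other Phf12 probe set, 1453579_at, showed no such gap (difference 0.012, limma adjusted p = 0.966).

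All 10 genes had lower values in both KO lines than in both WT lines, and 5 of them fell (limma): H2-K1, Tapbp, Psmb8, Psmb9 and Psmb10. The 3 immunoproteasome genes and tapasin were between 2.07-fold and 3.07-fold lower in the KO. The other 5, H2-D1, B2m, Tap1, Tap2 and Nlrc5, did not pass, with limma adjusted p between 0.0619 and 0.52. Over all genes, 6.95% fell and 12.2% were called in either direction, against 50% of these 10. Both KO lines lay under both WT lines at 29.5% of all genes, and 50.8% of all genes had a negative difference. The median difference of the 10 genes was -1.14, against -0.0027 over all genes. At an unadjusted limma p under 0.05, 9 of the 10 were lower, with Tap2 as the exception, and 15.2% of all genes.

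**Figure D1:**
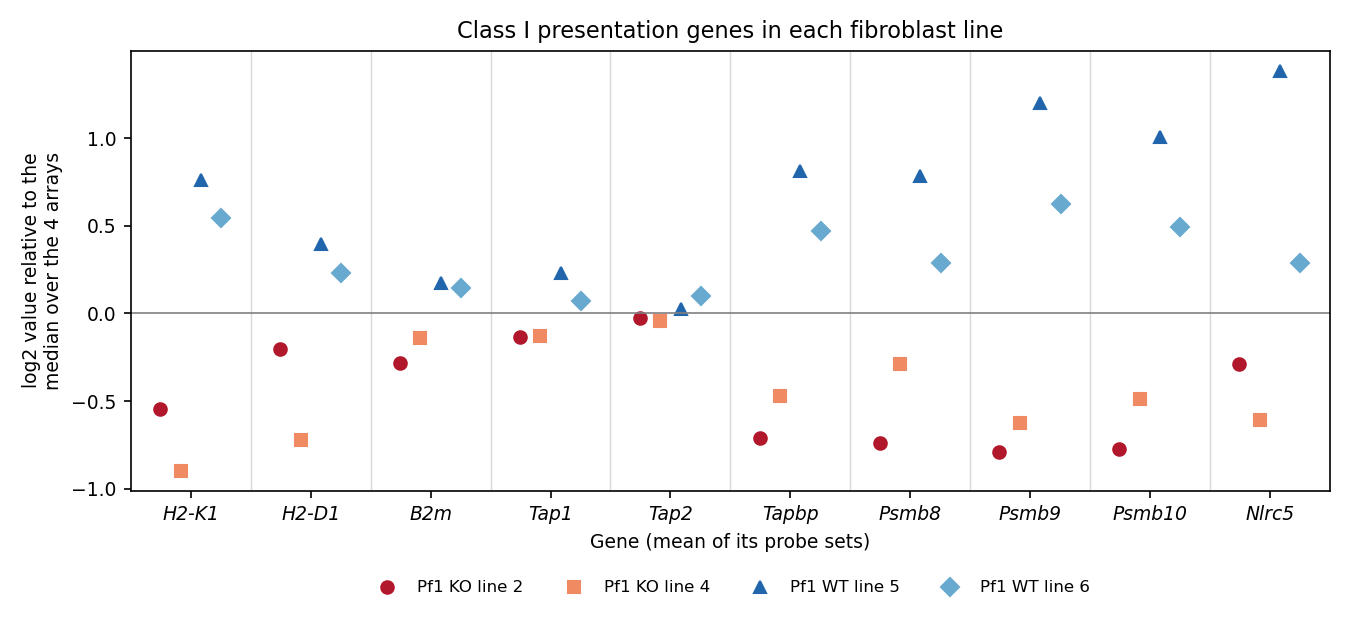
Log2 value of each gene (mean of its probe sets, relative to the median of each probe set over the 4 arrays) in Pf1 KO lines 2 and 4 and Pf1 WT lines 5 and 6, 1 point per line. The KO points lie under the WT points at all 10 genes, with the widest gap between group means at Psmb9 (-1.62) and the narrowest at Tap2 (-0.096).

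With any 1 line left out, limma called 0 of the 10 genes, and between 7 and 9 of them stayed at an unadjusted p under 0.05. The differences stayed negative for all 10 genes in each of these fits, and the adjusted p of the 5 called genes then lay between 0.0514 and 0.195. Such a fit has 1 residual degree of freedom, and it called 0 genes of either direction without KO line 2 or WT line 6 and 1 without WT line 5. Without KO line 4 it called 234 lower and 87 higher.

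The start regions of the genes show what the class I promoters share. Windows of 250 bases before to 50 after the gene start were taken from RefSeq (GRCm38.p6), which held 8 of the 10 genes. Tap2 and Nlrc5 had none. Windows were searched on both strands for GAAA, any 2 bases and GAAA (the interferon-stimulated response element, ISRE), AANNGAAA (the core bound by interferon regulatory factors, which every ISRE match contains), TTCNNNGAA (the gamma-activated site, GAS), GGG, any 2 bases and TTCCC (kappaB), TGACG (the core shared by the X2 box and cyclic AMP response elements) and CCAAT. The windows of both heavy chains, of B2m and of Tap1 are shown because they hold most of these matches. Capitals mark the matches.
H2-K1, chr17:34000298-34000597 (- strand): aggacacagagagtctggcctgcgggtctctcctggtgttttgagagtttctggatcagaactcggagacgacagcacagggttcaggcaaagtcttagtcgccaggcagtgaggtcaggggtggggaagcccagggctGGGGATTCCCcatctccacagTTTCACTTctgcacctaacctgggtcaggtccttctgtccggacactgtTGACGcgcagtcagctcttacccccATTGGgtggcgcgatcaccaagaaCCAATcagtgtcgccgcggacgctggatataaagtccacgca
H2-D1, chr17:35262844-35263143 (+ strand): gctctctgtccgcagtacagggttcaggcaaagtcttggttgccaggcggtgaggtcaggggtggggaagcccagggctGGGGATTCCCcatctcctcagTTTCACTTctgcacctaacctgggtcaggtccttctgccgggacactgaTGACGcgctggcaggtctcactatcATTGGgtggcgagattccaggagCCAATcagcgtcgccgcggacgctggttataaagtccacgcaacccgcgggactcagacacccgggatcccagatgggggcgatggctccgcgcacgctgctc
B2m, chr2:122147437-122147736 (+ strand): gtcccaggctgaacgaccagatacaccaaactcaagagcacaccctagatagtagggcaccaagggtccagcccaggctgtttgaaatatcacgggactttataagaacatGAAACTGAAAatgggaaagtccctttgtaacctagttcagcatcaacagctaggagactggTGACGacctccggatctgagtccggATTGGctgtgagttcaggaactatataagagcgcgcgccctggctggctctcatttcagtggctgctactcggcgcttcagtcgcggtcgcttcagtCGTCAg
Tap1, chr17:34187306-34187605 (+ strand): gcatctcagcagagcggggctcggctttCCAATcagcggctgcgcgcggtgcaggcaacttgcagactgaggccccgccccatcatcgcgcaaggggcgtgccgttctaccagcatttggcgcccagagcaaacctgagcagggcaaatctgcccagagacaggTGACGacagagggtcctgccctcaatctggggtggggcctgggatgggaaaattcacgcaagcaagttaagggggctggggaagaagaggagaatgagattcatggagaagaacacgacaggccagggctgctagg

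The H2-K1 and H2-D1 windows matched in 206 of 228 aligned bases (90.4%). Both hold kappaB, the interferon regulatory factor core, TGACG and CCAAT in this order and at the same spacing. In H2-K1 they start 111, 90, 41 and 16 bases before the annotated gene start, and in H2-D1 171, 150, 101 and 76 bases before it. A second CCAAT match follows in each. B2m had an ISRE 139 bases before its start, with TGACG and CCAAT closer to the start. Tap1 and Psmb9 are neighbours on opposite strands, and their windows share 275 bases, so TGACG and CCAAT in the Tap1 window are the same bases as in the Psmb9 window. Tapbp had CCAAT alone, Psmb8 a GAS alone and Psmb10 none of the 6. Of all 32851 windows, 3.44% held the ISRE, 23.9% the interferon regulatory factor core, 8.30% the GAS, 1.75% kappaB, 20.8% TGACG and 37.4% CCAAT. Matches to letters are a description of these windows and not evidence of binding.

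Heavy chains carry the peptide groove that T cells inspect. H2-K1 stood at -0.54 and -0.90 in KO lines 2 and 4, against 0.76 and 0.54 in WT lines 5 and 6. The groups did not overlap and line 4 was the lowest. H2-K1 was 2.59-fold lower in the KO (-1.37 ± 0.153 SE, limma adjusted p = 0.0163). All 4 of its probe sets fell in the fit over 45037 probe sets, by between 0.91 (1450534_x_at) and 1.80 (1427746_x_at) on the log2 scale. In that fit 4.4% of all probe sets fell, 3.92% rose and 8.32% were called in either direction.

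H2-D1 stood at -0.20 and -0.72 in KO lines 2 and 4, against 0.39 and 0.23 in WT lines 5 and 6. The groups did not overlap, but KO line 2 lay closer to WT line 6 than to KO line 4. The difference was -0.77 ± 0.189 (limma adjusted p = 0.0619), and -0.51 without KO line 4. Of its 9 probe sets 3 fell, 1425545_x_at, 1450170_x_at and 1451784_x_at, by 1.21, 0.80 and 1.22 on the log2 scale. Probe set 1451934_at ran the other way, at 0.26 and 0.035 in KO lines 2 and 4, against -0.067 and -0.035 in WT lines 5 and 6 (limma adjusted p = 0.364), a difference of 0.20, or 0.087 without KO line 2. With the median of its probe sets in place of the mean, H2-D1 was called (-0.75, limma adjusted p = 0.0446). Without probe sets ending in _s_at or _x_at, a suffix for probes that can match several transcripts, H2-K1 had no probe set left. The H2-D1 difference was then -0.40 (limma adjusted p = 0.31), the mean of 1451934_at and 1426324_at, which disagreed. Probe set 1426324_at differed by -1.006 (limma adjusted p = 0.158), at -0.22 and -1.325 in KO lines 2 and 4, against 0.22 and 0.247 in WT lines 5 and 6. Of the 13 heavy chain probe sets 11 end in _x_at. Class I heavy chains are near-identical paralogs, so signal of H2-K1, H2-D1 and further class I genes cannot be told apart with certainty.

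B2m, the invariant light chain, stood at -0.28 and -0.14 in KO lines 2 and 4, against 0.17 and 0.14 in WT lines 5 and 6. The groups did not overlap, and the difference of -0.37 ± 0.0909 did not pass (limma adjusted p = 0.0632). Its 2 probe sets differed by -0.35 and -0.39. Quantile normalisation of the arrays brought B2m to a limma adjusted p of 0.0488.

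Tapbp encodes tapasin, which links class I molecules to the transporter. It stood at -0.71 and -0.47 in KO lines 2 and 4, against 0.81 and 0.47 in WT lines 5 and 6, without overlap. Tapbp fell 2.35-fold (-1.23 ± 0.154 SE, limma adjusted p = 0.0184), and both of its probe sets fell, 1421812_at by 1.39 and 1450378_at by 1.07 on the log2 scale.

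The probe sets of Tap1, the transporter subunit beside Psmb9, disagreed. Probe set 1416016_at stood at -0.70 and -0.48 in KO lines 2 and 4, against 0.78 and 0.48 in WT lines 5 and 6. This probe set fell (-1.22 ± 0.145 SE, limma adjusted p = 0.0197), close to the difference of Tapbp. The other 3 lay between -0.11 and 0.12 on every array, with differences of 0.094 (1448177_at), 0.034 (1420274_at) and -0.031 (1449803_x_at). The Tap1 mean over the 4 therefore differed by only -0.28 ± 0.0935 (95% interval -0.52 to -0.042, limma adjusted p = 0.122). With the most variable probe set of each gene in place of the mean, a choice made after the values were seen, Tap1 was called (-1.22, limma adjusted p = 0.0151). That choice takes 1416016_at for its spread over the same 4 lines, so it repeats the call of that probe set and adds no support. Tap2, the partner subunit, had 1 probe set, 1453913_a_at, at -0.024 and -0.045 in KO lines 2 and 4, against 0.024 and 0.10 in WT lines 5 and 6. Its difference was -0.096 ± 0.0822 (95% interval -0.31 to 0.11, limma adjusted p = 0.52), and -0.058 without WT line 6. Signal over background was not used here, so a flat probe set can be one that did not change or one that measured nothing.

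**Figure D2:**
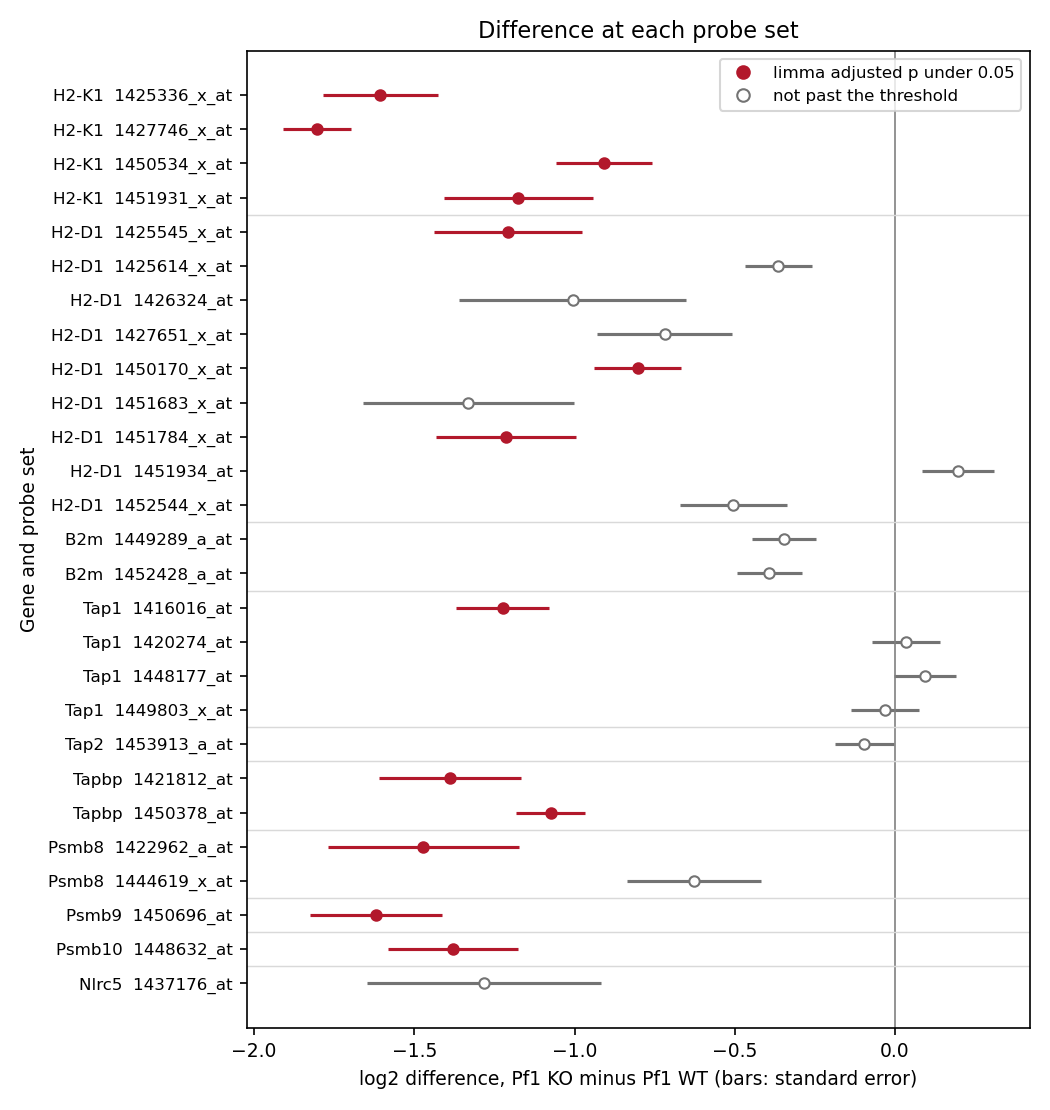
Log2 difference (KO minus WT, with its standard error) at each of the 27 probe sets of the 10 genes, filled where the limma adjusted p over 45037 probe sets was under 0.05. Of the 27, 13 fell, 0 rose and 14 did not pass, while 4.4% of all probe sets fell and 3.92% rose. The 3 positive differences belong to H2-D1 and Tap1. Both KO lines lay under both WT lines at 23 of the 27, against 26.3% of all probe sets.

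Psmb9, Psmb8 and Psmb10 encode the beta1i, beta5i and beta2i subunits, which alter the cleavage preference of the proteasome. Psmb9 stood at -0.79 and -0.62 in KO lines 2 and 4, against 1.20 and 0.62 in WT lines 5 and 6, and fell 3.07-fold (-1.62 ± 0.204 SE, limma adjusted p = 0.0184). Psmb10 stood at -0.78 and -0.49 in KO lines 2 and 4, against 1.00 and 0.49 in WT lines 5 and 6, and fell 2.60-fold (-1.38 ± 0.201 SE, limma adjusted p = 0.0231). For both genes WT line 5 was the highest, and the groups were wide apart. Psmb8 stood at -0.74 and -0.29 in KO lines 2 and 4, against 0.78 and 0.29 in WT lines 5 and 6. It fell 2.07-fold (-1.05 ± 0.226 SE, limma adjusted p = 0.0474), through 1422962_a_at (-1.47, limma adjusted p = 0.0477) more than 1444619_x_at (-0.63, limma adjusted p = 0.14). The difference of 1444619_x_at was -0.33 without WT line 5 and -0.93 without WT line 6. The Psmb8 call was lost with the median of probe sets (limma adjusted p = 0.0534) and with probe sets of several genes added (limma adjusted p = 0.0539).

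Of the 3 constitutive catalytic subunits that these replace, 1 rose and 0 fell, while 5.21% of all genes rose and 6.95% fell. Psmb7, the beta2 subunit, rose 1.52-fold (0.60 ± 0.111 SE, limma adjusted p = 0.0347), at 0.27 and 0.23 in KO lines 2 and 4, against -0.47 and -0.23 in WT lines 5 and 6. Psmb5 and Psmb6 (beta5 and beta1) differed by 0.31 ± 0.127 and 0.15 ± 0.094 and did not pass. Within each line, Psmb10 minus Psmb7 was -1.05 and -0.72 in KO lines 2 and 4, against 1.48 and 0.72 in WT lines 5 and 6, a difference of -1.98. Psmb9 minus Psmb6 was -0.81 and -0.69 in KO lines 2 and 4, against 1.38 and 0.65 in WT lines 5 and 6, a difference of -1.76. Psmb8 minus Psmb5 was -0.79 and -0.46 in KO lines 2 and 4, against 1.13 and 0.34 in WT lines 5 and 6, a difference of -1.36. In all 3 pairs both KO lines lay under both WT lines, and the two-sided exact permutation p was 0.333 for each (0.333 adjusted over the 3 pairs), the smallest that 2 lines against 2 can give.

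**Figure D3:**
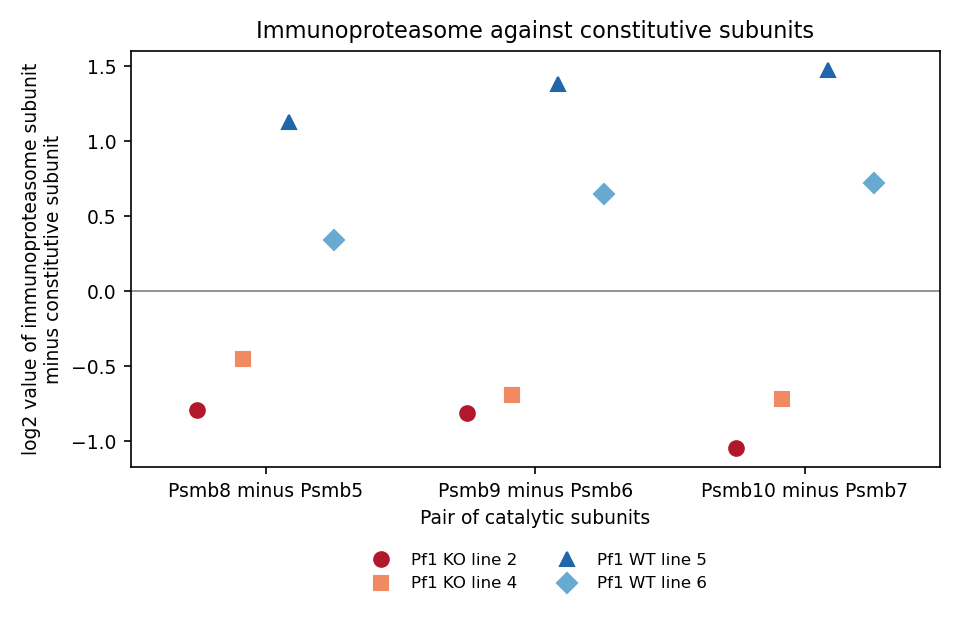
Log2 value of each immunoproteasome subunit minus its constitutive counterpart within each line, for Pf1 KO lines 2 and 4 and Pf1 WT lines 5 and 6, 1 point per line. KO points lie between -1.05 and -0.46 and WT points between 0.34 and 1.48. Since the values are centred, 0 is not an equal level of the 2 subunits.

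The remaining 20S core subunits, shared by both forms of the proteasome, were listed with the assembly factor Pomp. Of 12 measured, 4 rose, 0 fell and 8 did not pass, with a median difference of 0.22. Over all genes 5.21% rose and 6.95% fell, so 0 falling of 12 is near the share of all genes. The 4 were Psma2 (0.51 ± 0.096 SE), Pomp (0.50 ± 0.095), Psmb2 (0.48 ± 0.104) and Psma6 (0.44 ± 0.0802), with limma adjusted p between 0.0337 and 0.0479. Of the proteasome activators, Psme1, the interferon-inducible PA28 alpha subunit, fell 2.45-fold (-1.30 ± 0.148 SE, limma adjusted p = 0.0167). It stood at -0.84 and -0.51 in KO lines 2 and 4, against 0.73 and 0.51 in WT lines 5 and 6. Psme3 and Psme4, activators of the nuclear proteasome, differed by 0.46 ± 0.144 and 0.28 ± 0.0791 and did not pass, and Psme2 had no probe set of its own.

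Nlrc5 had 1 probe set, 1437176_at, and the widest gap between the WT lines of the 10 genes. It stood at -0.29 and -0.61 in KO lines 2 and 4, against 1.38 and 0.29 in WT lines 5 and 6. The WT lines were thus 2.14-fold apart, and the difference of -1.28 ± 0.368 did not pass (limma adjusted p = 0.0882). It was -0.74 without WT line 5 and -1.83 without WT line 6.

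Of 14 measured regulators of class I transcription, 5 fell, 0 rose and 9 did not pass, with a median of -0.14. Stat2, a component of the type I interferon response factor, fell most (-1.61 ± 0.145 SE, limma adjusted p = 0.0137), followed by the interferon regulatory factor Irf1 (-0.79 ± 0.143) and the NF-kappaB subunit Relb (-0.79 ± 0.152). Rfx5, which binds the X box of class I and class II promoters, fell by 0.72 (SE 0.0891), and Irf9, the DNA-binding partner of Stat2, by 0.69 (SE 0.115). For Irf1, Relb, Rfx5 and Irf9 limma gave adjusted p-values of at most 0.0376. Of 8 genes of interferon gamma signalling, Socs3, a feedback inhibitor of cytokine receptors, fell (-1.54 ± 0.281 SE, limma adjusted p = 0.0339) and 7 did not pass. For comparison, 6.95% of all genes fell. The list had a median of -0.30, with a negative difference at 6 of the 8. Socs1 (-0.77 ± 0.22) and Jak2 (-0.54 ± 0.196) were also lower at an unadjusted limma p under 0.05. The receptor genes Ifngr1 and Ifngr2, named after their values were seen, differed by -0.052 ± 0.0853 and 0.16 ± 0.0906.

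Other class I and class I-like heavy chains with a probe set of their own numbered 12, of 21 listed. Among these 12, 6 fell, 0 rose and 6 did not pass, with a median of -0.65, while 6.95% of all genes fell. H2-Q10, which encodes a secreted class I molecule, stood at -1.70 and -0.998 in KO lines 2 and 4, against 1.06 and 0.998 in WT lines 5 and 6. It was 5.19-fold lower in the KO (-2.38 ± 0.235 SE, limma adjusted p = 0.0152), a larger gap than at any of the 10 genes. H2-Q2 fell 2.86-fold (-1.52 ± 0.114 SE, limma adjusted p = 0.0113). Both H2-Q genes rest on 1 probe set each, and their signal cannot be told apart with certainty from that of related class I genes. Outside the H2-Q genes, Mr1, which presents vitamin B metabolites, fell by 0.74 (SE 0.102, limma adjusted p = 0.0209) and Fcgrt, the heavy chain of the neonatal Fc receptor, by 0.90 (SE 0.164, limma adjusted p = 0.0339). Both pair with B2m.

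Of 8 genes for peptide loading and trimming, Tapbpl, a tapasin relative, fell (-0.37 ± 0.0799 SE, limma adjusted p = 0.0473) and 7 did not pass, with a median of -0.11. The share of all genes that fell was 6.95%. For class II presentation, limma called 0 of 10 measured genes, with 0 at an unadjusted p under 0.05. Up or down, limma called 12.2% of the whole gene set, so 0 called of 10 is near that share. This count alone does not set class II apart. Within class II, the smallest p-values were those of H2-Eb1 (0.17 ± 0.0934), H2-DMa (-0.17 ± 0.108) and the class II beta chain H2-Ab1 (-0.54 ± 0.374). H2-Ab1 stood at -1.05 and 0.078 in KO lines 2 and 4, against 0.18 and -0.078 in WT lines 5 and 6, so KO line 2 alone was low.

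In RefSeq, 7 of the 10 genes lie on chromosome 17, in the H2 region, where Psmb9, Tap1, Psmb8 and Tap2 follow each other with no other protein-coding gene between them. Psmb10 and Nlrc5 lie on chromosome 8 and B2m on chromosome 2. Of 17 measured genes of other function in the H2 region, 1 fell and 2 rose, with a median of 0.15. Over all genes, 6.95% fell and 5.21% rose. The glycosyltransferase gene B3galt4 fell (-0.47 ± 0.103 SE), and Vps52, a vesicle tethering factor (0.58 ± 0.121), and the ribosome biogenesis factor Wdr46 (0.56 ± 0.122) rose, with limma adjusted p between 0.0449 and 0.0499.

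**Figure D4:**
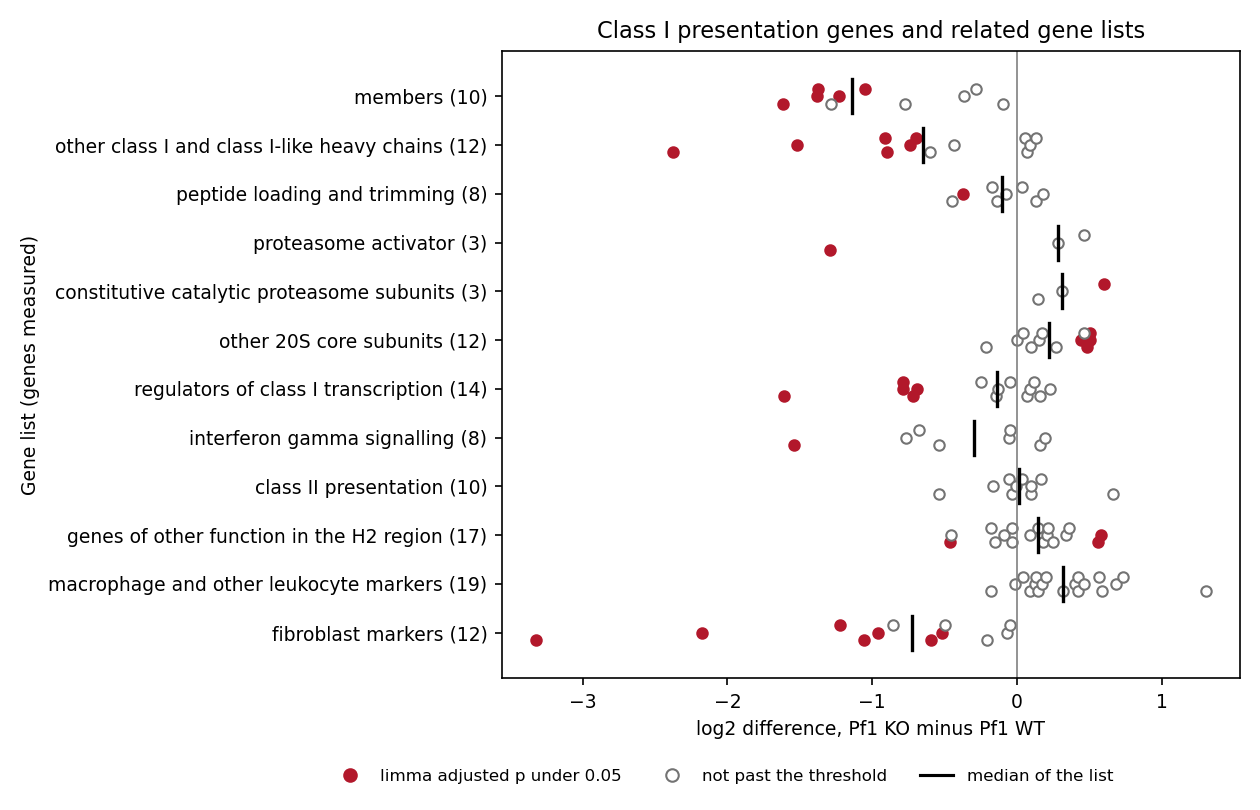
Log2 difference (KO minus WT) of the 10 genes and of 11 related gene lists, 1 point per gene, filled where the limma adjusted p over all genes was under 0.05, with a line at each median. The 10 genes have a median of -1.14, class II genes of 0.016 and the 20S core subunits of 0.22.

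At H2-K1 and H2-D1 the KO lines stood in another order than at most of the other 8 genes. All 13 probe sets of H2-K1 and H2-D1 were lower in KO line 4 than in KO line 2, against 51.3% of all probe sets. These 13 share much of their sequence and are not independent. Relative to the WT mean, H2-K1 was 2.29-fold and 2.93-fold lower in KO lines 2 and 4, and H2-D1 1.43-fold and 2.05-fold lower. Of the other 8 genes 6 were lower in KO line 2, as were 10 of their 14 probe sets. Over all probe sets, KO line 4 was the lower at 51.3%. Psmb8 was 2.42-fold and 1.77-fold below the WT mean in KO lines 2 and 4, and Tapbp 2.55-fold and 2.16-fold. Of the other class I-like heavy chains named above, H2-Q10, Mr1 and Fcgrt were lower in KO line 2. H2-Q2 was slightly lower in KO line 4. With 1 array per line, these orders were not tested.

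**Figure D5:**
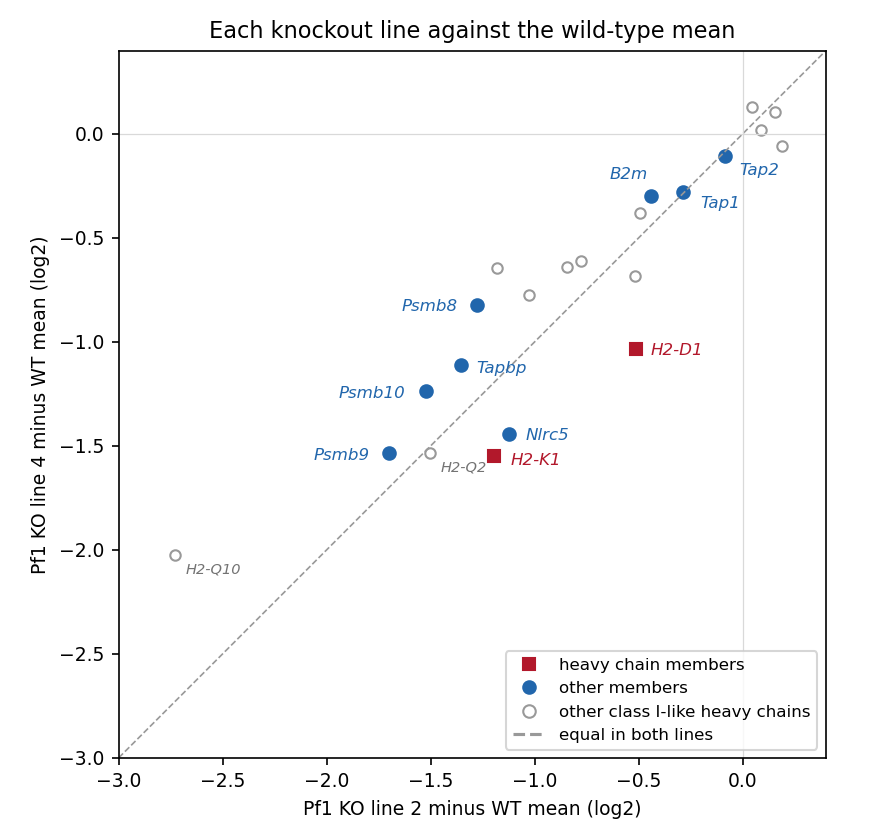
Log2 distance from the WT mean in Pf1 KO line 2 (x axis) and Pf1 KO line 4 (y axis) for the 10 genes and for 12 other class I-like heavy chains, with a dashed line where both KO lines are equal. H2-K1 (-1.20 and -1.55) and H2-D1 (-0.51 and -1.03) lie under the line, and Psmb8 (-1.28 and -0.82) lies above it.

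Between the WT lines, line 5 was higher than line 6 at 9 of the 10 genes, with Tap2 as the exception, against 48.2% of all genes. Markers of macrophages and other leukocytes, which express class I and the immunoproteasome strongly, also separated the WT lines. Of these markers, 19 of 19 were higher in WT line 5 than in WT line 6, and 18 of 19 higher in KO line 4 than in KO line 2. All 13 heavy chain probe sets were lower in KO line 4, while 6 of the other 8 genes were lower in KO line 2. The median of the markers was -0.26 and 0.36 in KO lines 2 and 4, against 0.40 and -1.01 in WT lines 5 and 6. Limma called 0 of the 19, with 0 at an unadjusted p under 0.05, while 12.2% of all genes were called in either direction. The lysozyme gene Lyz2 had the smallest p (1.31 ± 0.587, limma adjusted p = 0.223). Next in p were Cd68 (0.68 ± 0.601) and Laptm5 (0.32 ± 0.283). Their part in the difference between WT lines 5 and 6 was not tested. Without WT line 5 the median of the 10 genes was -0.77, and without WT line 6 it was -1.35.

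Of 12 fibroblast markers, 7 fell, 0 rose and 5 did not pass, with a median of -0.72, while 6.95% of all genes fell and 5.21% rose. Examples are the collagen genes Col1a1 (-0.96 ± 0.129 SE) and Col1a2 (-0.59 ± 0.102), the receptor Pdgfrb (-0.52 ± 0.09) and the proteoglycan Lum (-3.33 ± 0.591). Their part in the lower class I values was not tested, and fewer cells of a kind and less RNA per cell cannot be told apart in these bulk samples. Of 7 endothelial markers, Emcn rose (1.85 ± 0.112 SE), Tek fell (-0.72 ± 0.147) and 5 did not pass.

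The genes outside the 10 whose values ran closest to the mean of the 10, by Euclidean distance over the 4 lines, were Ypel3 (distance 0.0516), Tcp11l2 (0.0797), Gpc3 (0.0813), Esr1 (0.0819) and Adamts3 (0.0932). Each lay closer to that mean than any of the 10 genes themselves, whose distances ran from 0.33 (Tapbp) to 0.902 (Tap2). The named genes were picked for the smallest distance among all other genes and the 10 were not, so that order follows from the choice. Ypel3 stood at -0.44 and -0.41 in KO lines 2 and 4, against 0.73 and 0.41 in WT lines 5 and 6.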

How the data were processed

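RNA of 4 fibroblast lines was hybridised to 1 Affymetrix array each. The authors deposited log2 values from RMA in Affymetrix Expression Console, as named per the submitters' processing notes without versions. RMA output is log2, which sets the base assumed here. The median of each of 45101 probe sets in the deposited table was 0 over the arrays within 1e-06, a centring the labels do not describe. The table holds more probe sets than the A array named in the series text and matched the annotation of the full mouse array.

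Of the probe sets, 34958 had 1 gene, 932 had several and 64 were controls. Entrez identifiers matched 34754 to RefSeq (GRCm38.p6) and changed 0 symbols. Probe sets of 1 gene were averaged, giving 18194 genes, and KO minus WT was modelled in limma 3.58.1 (lmFit, eBayes, R 4.3.3) without covariates, with 2 residual and 3.04 prior degrees of freedom and Benjamini-Hochberg adjustment over all genes. A second fit used the 45037 probe sets that are no controls. Values were not filtered, since centred values hold no level. Precision is limited by having 4 arrays. The fit was tested on simulated data.

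The 10 genes and the lists were chosen with earlier results of these data known. Named genes were all 10 members with their probe sets, Phf12, from each list the called genes (the 4 with the smallest p where more than 5 were called, up to 3 where 0 were) and the 5 genes nearest to the members' mean. Psmb5 and Psmb6 were named for the subunit pairs, and Psme3, Psme4, Ifngr1, Ifngr2, Socs1 and Jak2 were added after their values were seen. Alternatives were the median of probe sets, other probe set choices, quantile normalisation, median centring, array weights, robust eBayes and each line left out.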

Additional observations from a re-analysis of the deposited data

How the results depend on the processing

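Under the median of probe sets, the exclusion of _s_at and _x_at probe sets, the addition of probe sets of several genes, quantile normalisation, median centring, array weights, robust eBayes and the most variable probe set (the last chosen after seeing the data), limma called between 4 and 6 of the 10 genes, or of the 9 left without _s_at and _x_at probe sets, against 5 as reported. The median difference lay between -1.36 and -1.03, and no gene changed direction. With 1 line left out, 0 of the 10 genes and 0 of the 27 probe sets were called, the median difference lay between -1.35 and -0.77, and over all genes between 0 and 234 fell and between 0 and 87 rose, against 1264 and 947 with all lines. These fits have fewer arrays. Among the flat Tap1 probe sets, 1420274_at lay between -0.052 (without KO line 2, where its sign turned) and 0.12, and 1449803_x_at between -0.12 and 0.058 (without WT line 5, where its sign turned). Of the 27 probe sets, 10 to 13 were called under quantile normalisation, median centring, array weights or robust eBayes. No paired analysis was possible because the line numbers of the genotypes differ. Subunit pairs kept their direction wherever all 4 lines were used. Values centred per probe set hold no signal over background, so what dim probe sets limit could not be read.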
